A study of Homo sapiens with 4 samples.

Results

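The genes described here encode the 5 NF-κB subunits (RELA, REL, RELB, NFKB1 and NFKB2) and their I-κB inhibitors (NFKBIA, NFKBIB, NFKBIE and NFKBIZ), with BCL3 listed as a further I-κB protein. They were taken as all probe sets whose single gene symbol in the platform annotation is one of these 10 genes. Of 54675 probe sets on the array, 20 met that rule, and they covered 9 of the 10 genes. The 2 probe sets annotated to BCL3 also carry a microRNA symbol, so BCL3 is not reported. A filter on dim probe sets, explained below, was passed by 19 of the 20 probe sets and by each of the 9 genes, out of 13717 genes in all.

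RNA came from Jurkat, a long-established line of human leukaemic T cells. One derivative carried a control construct, called vector in the sample titles and a control hairpin in the design text (control cells), and the other a hairpin that targets IKKε (shIKKE cells). Each received, for 3 h, either solvent or PMA at 10 ng/ml plus ionomycin at 0.5 uM, which gave 4 groups with 1 array each. PMA activates protein kinase C and ionomycin admits calcium, so the pair stands in for signals of the T cell receptor. IKKε is the product of IKBKE and resembles TBK1 and the kinases of the classical I-κB kinase complex. The sources used here do not state whether either line is a clone or a pool, nor the sequence of the hairpin.

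NF-κB proteins bind DNA as dimers. RelA (p65), c-Rel and RelB carry transactivation domains, while NFKB1 and NFKB2 encode the precursors p105 and p100, which are processed to p50 and p52. I-κBα, I-κBβ and I-κBε hold dimers in the cytoplasm until the I-κB kinase complex marks them for degradation. In T cells protein kinase C acts upstream of that complex. Several of these genes are known as NF-κB targets, so that activation renews both the factors and their inhibitors. Regulation of the proteins by phosphorylation, degradation and nuclear entry is not seen by an array that measures RNA.

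The promoter sequences show where the binding motif of these factors lies near the members' own start sites. The κB consensus, a motif of 10 bases, was searched on both strands in the 250 bases before each start site of the RefSeq table (GRCh38.p14). It was found before at least 1 start of 6 of the 8 listed genes with an entry, NFKB1, NFKB2, REL, NFKBIA, NFKBIB and NFKBIZ, but in none of the windows of RELA and BCL3. RELB and NFKBIE had no entry. Over the whole table, 1715 of 27305 genes (6.28%) had a match. A match is a description of the letters and not evidence of binding, and the members' share was not tested. Matches are printed in capitals in the gene's direction, 5′ to 3′, with more flanking bases at the first start of a gene than at later ones. Overlapping matches are shown as 1 stretch.

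NFKB1, chr4:102501290-102501339, plus strand, first start: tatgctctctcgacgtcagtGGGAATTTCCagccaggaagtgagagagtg
REL, chr2:60881507-60881557, plus strand, first start: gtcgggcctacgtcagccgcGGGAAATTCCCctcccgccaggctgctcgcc
NFKBIA, chr14:35404801-35404850, minus strand, first start: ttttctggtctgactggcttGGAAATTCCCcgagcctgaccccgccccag
NFKBIZ, chr3:101827747-101827796, plus strand, first start: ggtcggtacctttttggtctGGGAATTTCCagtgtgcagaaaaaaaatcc
NFKB2, chr10:102394462-102394490, plus strand, second start: aaacgtcatGGGAATTCCCCcctccgggg
NFKBIB, chr19:38899932-38899960, plus strand, second start: ggcgtggtgGGGAATTTCCCgcagggcgg

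The capitals begin 49 bases before the first start of NFKB1, 47 before that of REL, 81 before that of NFKBIA and 223 before that of NFKBIZ. In REL the stretch holds 2 overlapping matches, and the one on the minus strand, its last 10 bases, has the same letters as the match of NFKBIA. NFKB1 and NFKBIZ share their 10 matched bases, which also lie inside the stretch of NFKBIB. NFKB2 held 2 stretches before its second start, of which the first is shown, and 2 before its last, and NFKBIZ held 1 more before its second start.

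The arrays are described by the MAS5 signal, a linear intensity per probe set whose trimmed mean (2% left out at either end) equalled 500.07 on all 4 arrays, so the deposited values were already scaled. The median signal was between 48.8 and 69.1 and was higher on both stimulated arrays, and the 5′ to 3′ ratio of the ACTB control probe sets was between 0.244 and 0.401. Differences below are of log2(signal + 14.1), where the pseudocount of 14.1 understates differences of dim genes, and a gene passed the filter where its highest signal reached 56.4. Where a gene had several probe sets, that of the highest mean log2 value stood for it, and a difference of at least 1 (2-fold) was counted. With 1 array per group no difference has a replicate check, so values of single arrays are given without an error or a p-value. All 12 listed T cell markers were past the filter on all 4 arrays, with summed signals between 80652 and 86038. Of other cell types, the markers past the filter were 4 of 6 on the array for B cells and 3 of 6 for myeloid cells. They were 2 of 5 for natural killer cells and 3 of 6 for epithelial and erythroid cells. These summed to at most 841 for B cells, 259 for myeloid cells, 377 for natural killer cells and 355 for epithelial and erythroid cells. MS4A1, PAX5, CD14, LYZ and EPCAM were under the filter on every array, while BLK reached 416, CD79A 408, NKG7 326 and KRT8 220. The dimmest T cell marker signal was 353, of CD2 in stimulated shIKKE cells.

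The probe set that stands for IKBKE, a check of the targeted gene, read 340 and 520 in control cells with solvent and stimulation and 180 and 248 in shIKKE cells. The other IKBKE probe set, dimmer in control cells but brighter in shIKKE cells, read 218 and 311 in control cells and 287 and 280 in shIKKE cells. The probe sets thus gave opposite directions between the lines with solvent. TBK1 read 1664 and 1932 in control cells and 2216 and 2032 in shIKKE cells.

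**Figure D1:**
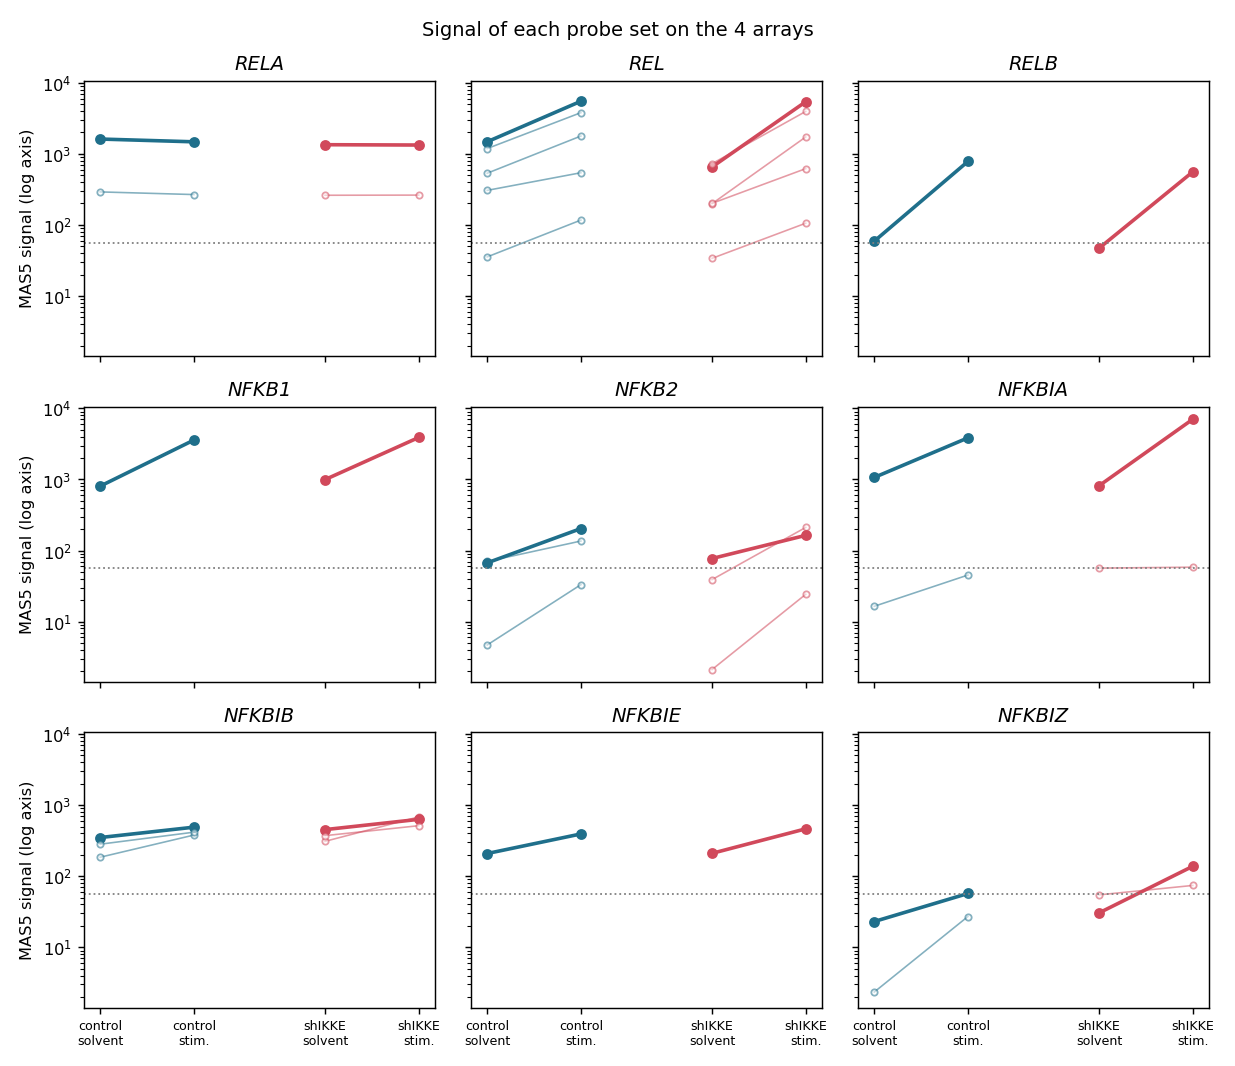
MAS5 signal (log axis) of every member probe set on the 4 arrays, with 1 panel per gene; thick lines and filled points are the probe set that stands for the gene, thin lines and open points are its other probe sets, and the dotted line is the filter value of 56.4. The lines of RELA are flat at 1330 to 1615 and 261 to 291, and those of RELB climb from 58.9 to 782 and from 47.0 to 558.

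With stimulation, subunits and inhibitors had higher signals in both lines, RELA excepted. In control cells 5 of the 9 genes were at least 2-fold higher and none was lower, where 7.57% of all genes were higher and 6.44% lower. In shIKKE cells 6 of the 9 were at least 2-fold higher and none lower, where 10.3% of all genes were higher and 2.68% lower. NFKBIZ, among these 6, passed the filter through its stimulated arrays alone, and without it 5 of 8 genes were higher in each line. NFKB1, REL, RELB and NFKBIA were at least 2-fold higher in both lines, as were 3.29% of all genes. The median log2 difference of the 9 genes was 1.42 in control cells and 1.77 in shIKKE cells, against -0.07 and -0.01 over all genes. In bulk RNA a higher signal from more cells and one from more RNA per cell cannot be told apart. Quantile normalization left 5 members higher in each line, while the shares of all genes moved to 5.94% higher and 8.68% lower in control cells and to 6.62% and 5.79% in shIKKE cells.

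RELA, whose product is the main transactivating partner in classical NF-κB dimers, was the member with the flattest signals. Its brighter probe set read 1615 and 1476 in control cells with solvent and stimulation and 1344 and 1330 in shIKKE cells (log2 -0.13 and -0.01). A second RELA probe set read 291, 267, 261 and 263 in the same order (log2 -0.12 and 0.01). All of these values lay within 2-fold, and both probe sets were highest in control cells with solvent.

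REL encodes c-Rel, the subunit best known for cytokine gene activation in lymphocytes, and was measured by 5 probe sets. The brightest read 1478 and 5496 in control cells with solvent and stimulation and 653 and 5411 in shIKKE cells, a log2 difference of 1.88 and 3.02. The stimulated arrays lay close together and the solvent arrays did not. All 5 probe sets were higher with stimulation in both lines, from 0.80 to 1.88 in control cells (4 of 5 at least 2-fold) and from 1.32 to 3.03 in shIKKE cells (5 of 5). Over all probe sets past the filter 10.1% and 11.4% were at least 2-fold higher. The fourth brightest probe set had the smallest difference in control cells, reading 306 and 542 there and 201 and 619 in shIKKE cells.

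RELB, encoding the subunit that pairs mainly with p52 and p50, had the largest stimulation difference of the 9 genes. Its probe set read 58.9 and 782 in control cells and 47.0 and 558 in shIKKE cells, so stimulated signals were 13.3 and 11.9 times those with solvent. The log2 differences of 3.45 and 3.23 ranked 22nd and 49th from the top of 13717 genes. Both solvent signals lay close to the filter value, where MAS5 signals are noisy.

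NFKB1 and NFKB2 encode the precursors of p50 and p52. The NFKB1 probe set read 806 and 3586 in control cells and 996 and 3902 in shIKKE cells (log2 2.14 and 1.96). Stimulated signals were thus 4.45 and 3.92 times those with solvent, values that lay close together. NFKB2 signals were closer to the filter value. The probe set that stands for it read 67.1 and 204 in control cells and 77.3 and 164 in shIKKE cells (log2 1.42 and 0.96). A second NFKB2 probe set read 70.2 and 136 in control cells and 39.0 and 212 in shIKKE cells (log2 0.83 and 2.09), which is the opposite order of the lines. The last NFKB2 probe set stayed under the filter, with a highest signal of 33.1, and gave log2 1.33 and 1.24. The NFKB2 probe sets thus shared the direction with stimulation, and which line had the larger difference depended on the probe set.

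**Figure D2:**
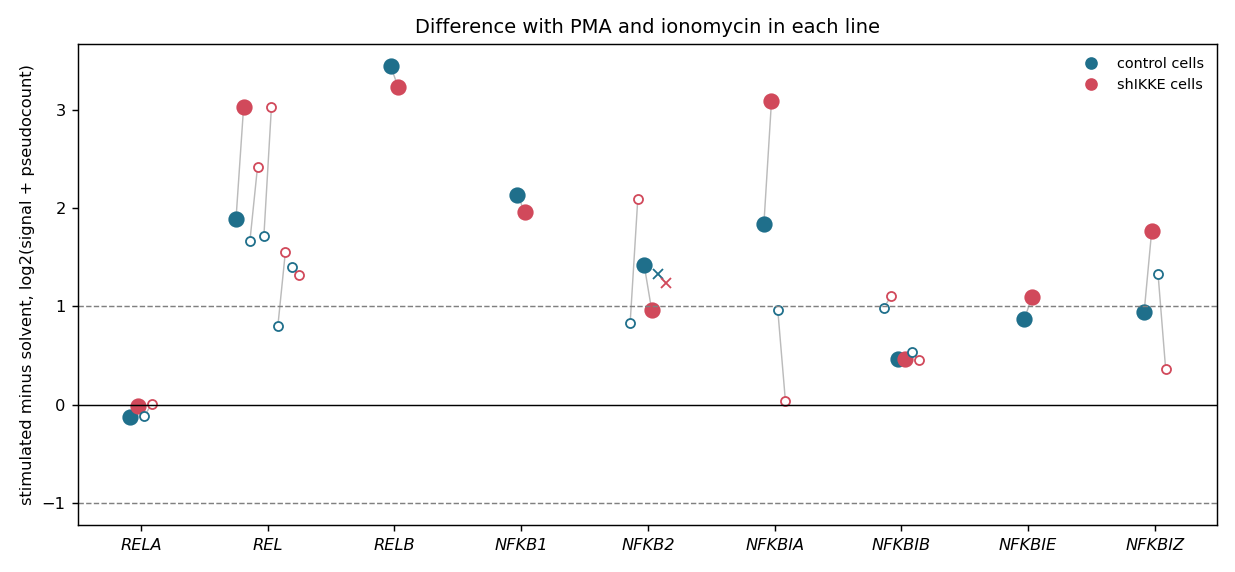
Log2 difference between stimulated and solvent arrays for each member probe set in the control and shIKKE lines; large filled points stand for the gene, open points are its other probe sets, crosses are the probe set under the filter, thin grey lines join the lines' values and dashed lines mark 2-fold. RELB lies highest in control cells at 3.45, RELA lies near 0, and REL and NFKBIA have the widest gaps between the lines among the filled points.

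NFKBIA encodes I-κBα, the inhibitor that is degraded first and resynthesised as an NF-κB target. Its bright probe set read 1068 and 3854 in control cells and 817 and 7051 in shIKKE cells (log2 1.84 and 3.09). The stimulated shIKKE array was the highest of the 4, and the solvent arrays were closer to each other. A second, dim probe set read 16.4 and 45.2 in control cells and 56.6 and 58.4 in shIKKE cells (log2 0.96 and 0.04). It passed the filter through the shIKKE arrays alone and did not show the pattern of the bright one.

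NFKBIB and NFKBIE encode I-κBβ and I-κBε, inhibitors that act beside I-κBα with slower turnover or resynthesis. The NFKBIB probe set that stands for the gene read 350 and 490 in control cells and 453 and 631 in shIKKE cells (log2 0.47 in each). All 3 NFKBIB probe sets were lowest in control cells with solvent and highest in shIKKE cells with stimulation, and 1 of them reached 0.98 and 1.11. NFKBIE read 209 and 393 in control cells and 210 and 464 in shIKKE cells (log2 0.87 and 1.10). The NFKBIE difference was therefore just short of 2-fold in control cells and just past it in shIKKE cells.

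NFKBIZ encodes I-κBζ, an inducible nuclear protein that binds p50 and can activate a subset of target genes. Its brighter probe set read 23.0 and 57.1 in control cells and 30.5 and 138 in shIKKE cells (log2 0.94 and 1.77). The other read 2.3 and 27.1 in control cells and 54.7 and 74.2 in shIKKE cells (log2 1.33 and 0.36). The gene passed the filter through its stimulated arrays alone. Both probe sets were higher with stimulation, but most of these signals lay below the filter value and the probe sets disagreed on which line had the larger difference.

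**Figure D3:**
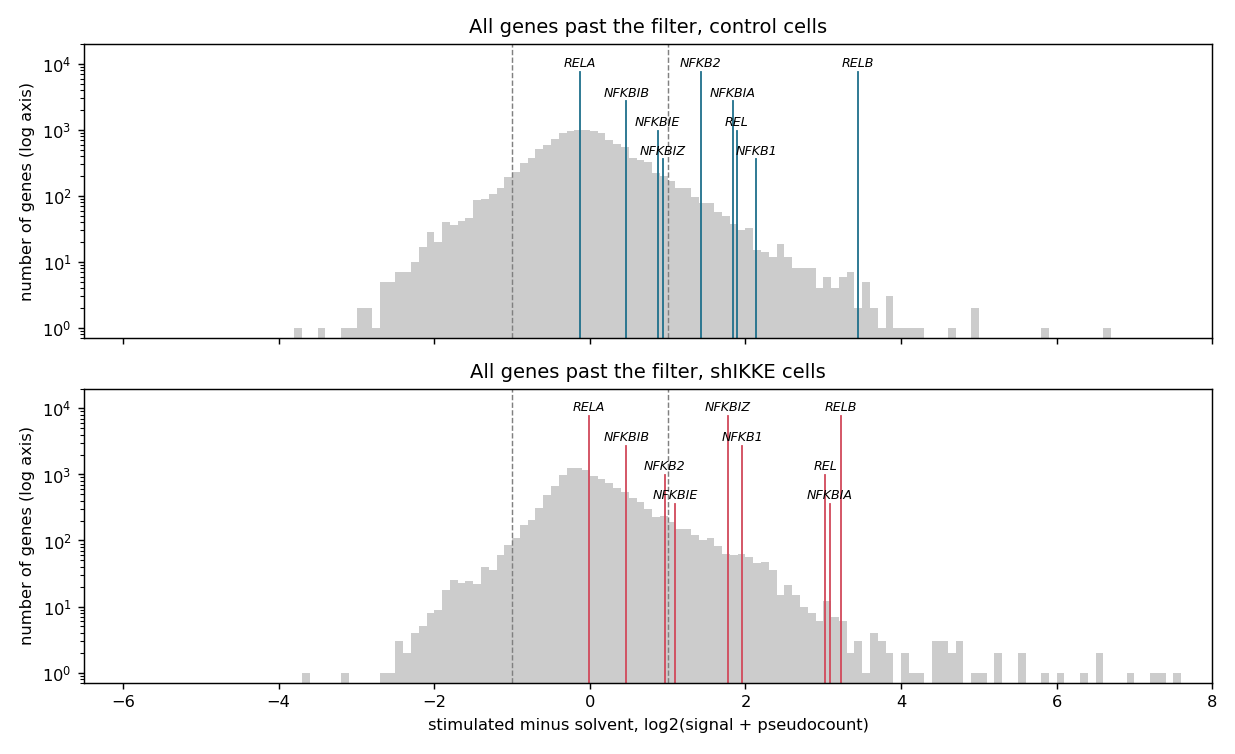
Number of genes (log axis) by log2 difference between stimulated and solvent arrays, for the 13717 genes past the filter in control cells (top) and shIKKE cells (bottom); coloured lines mark the 9 members, their heights carry no value, and dashed lines mark 2-fold. RELA lies inside the bulk at -0.13 and -0.01, while RELB lies in the upper tail at 3.45 and 3.23, joined there by NFKBIA and REL in shIKKE cells.

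Averaged over the lines, no member passed the test across all genes. In an additive limma model of line and stimulation, 0 of the 9 genes had a Benjamini-Hochberg adjusted p of at most 0.05 for stimulation, as did 1 gene of 13717 (0.00729%). The lowest adjusted p in limma among the members was that of RELB, at 0.0752 (log2 3.34 ± 0.25, SE), and it was between 1.7e-19 and 0.241 over the settings tried. The lower end came from letting the error variance in limma follow the signal level. There the error was shared almost entirely over all genes (13720 degrees of freedom), so that value says little about RELB itself. REL (log2 2.45 ± 0.36, adjusted p = 0.132), NFKBIA (2.46 ± 0.38, 0.136) and NFKB1 (2.05 ± 0.25, 0.114) followed in limma, and RELA had 0.92. At an unadjusted p under 0.05 there were 7 of 9 members, all with higher signals in both lines, against 13.8% of all genes. The residual error of this model, with 1 degree of freedom, is how unequal the responses of the lines were. It holds no spread between replicates. In limma this error is drawn toward a value shared over all genes, for 4.7 degrees of freedom in total. The SE of a member therefore reflects other genes as well: NFKBIB, with log2 0.47 in each line, still had an SE of 0.25. The call depended on how the error was set: 4 members (NFKB1, REL, RELB and NFKBIA) passed with a pseudocount 4 times as large, where 573 of 13717 genes (4.18%) passed. With an error variance that follows the level, 5 members (these and NFKBIE) and 1044 genes (7.61%) passed.

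The responses of the lines differed at least 2-fold for REL and NFKBIA, both larger in shIKKE cells (log2 1.14 and 1.25), and for no member in the other direction. Over all genes 11.4% had a response at least 2-fold larger in shIKKE cells and 4.67% a smaller one, so the members' share of 2 of 9 rests on few genes. NFKBIZ followed at 0.83. RELB (-0.22), NFKB1 (-0.18), NFKBIB (0.00), RELA (0.11) and NFKBIE (0.22) lay near 0, and NFKB2 was at -0.46, or 1.25 by its second probe set. These differences have no error estimate and were not tested. The 5 REL probe sets gave 1.14, 0.75, 1.32, 0.76 and -0.08, the last from the dimmest. The dim NFKBIA probe set gave -0.92.

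With solvent, REL was the 1 member at least 2-fold apart between the lines. It read 1478 in control cells and 653 in shIKKE cells (log2 -1.16), and 0 members were at least 2-fold higher, where 6.68% of all genes were lower in shIKKE cells and 4.34% higher. All 5 REL probe sets were lower in shIKKE cells, from -0.05 to -1.36, and 2 of them by at least 2-fold, as were 6.4% of all probe sets past the filter. NFKBIA (-0.38), RELA (-0.26) and RELB (-0.26) were lower by less, while NFKBIB (0.36), NFKB1 (0.30), NFKBIZ (0.26), NFKB2 (0.17) and NFKBIE (0.01) were slightly higher. The dim second probe set of NFKBIZ read 2.3 and 54.7 (log2 2.07) and that of NFKBIA 16.4 and 56.6 (log2 1.21), in contrast to the probe sets that stand for these genes.

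The solvent array of control cells also had high signals of the activation genes FOSB, EGR1 and CD69. They were named because they differed between the solvent arrays in earlier results of these data. FOSB read 1364 in control cells with solvent, 272 in control cells with stimulation and 7.4 in shIKKE cells with solvent. With solvent, EGR1 read 9953 in control cells and 1035 in shIKKE cells, and the activation marker CD69 read 1425 and 428. The control cells' solvent array is subtracted in both their stimulation difference and the solvent comparison of the lines. Its part in the REL values was not tested. With shIKKE cells in solvent as the baseline, the stimulated control array gave log2 3.05 for REL and 2.22 for NFKBIA. The same 5 members were at least 2-fold higher, where 8.02% of all genes were higher and 4.38% lower. Such values mix stimulation with whatever set the lines apart at rest.

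**Figure D4:**
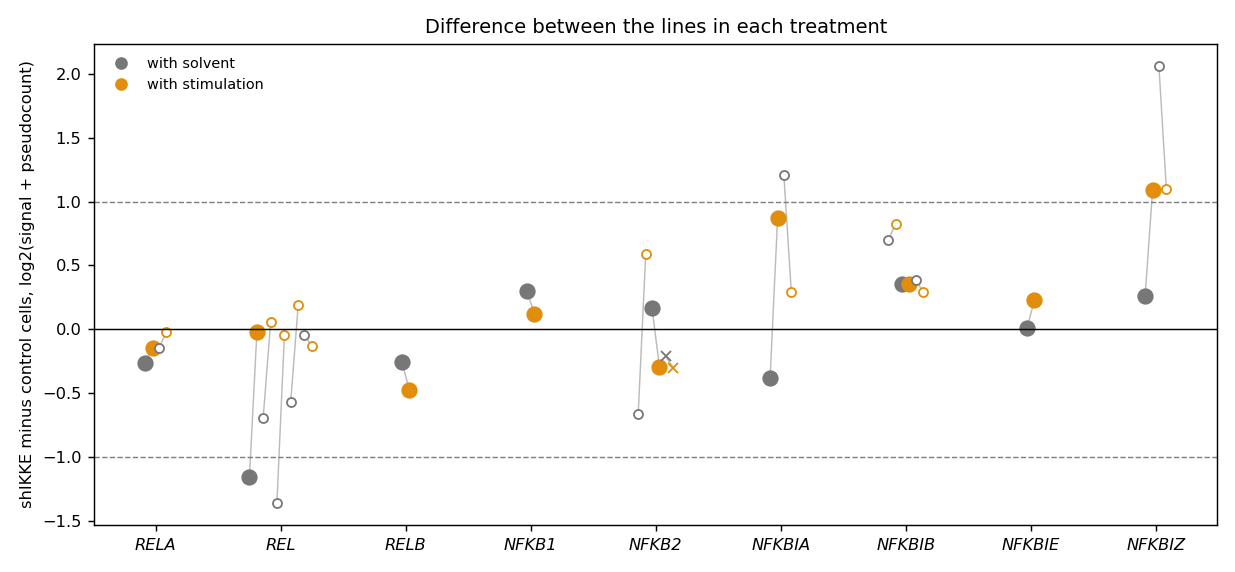
Log2 difference between the shIKKE and control lines for each member probe set, with solvent (grey) and with stimulation (orange); large filled points stand for the gene, open points are its other probe sets, crosses are the probe set under the filter and dashed lines mark 2-fold. REL lies at -1.16 with solvent and at -0.02 with stimulation, and NFKBIA at -0.38 and 0.87.

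With stimulation, NFKBIZ was at least 2-fold higher in shIKKE cells and no member was lower, where 5.99% of all genes were higher and 2.37% lower. It read 57.1 in control cells and 138 in shIKKE cells (log2 1.09), and its second probe set read 27.1 and 74.2 (log2 1.10). NFKBIA read 3854 and 7051 (log2 0.87), within 2-fold, and 0.29 by the dim probe set. The subunit genes all lay within 2-fold. NFKB1 differed by 0.12, REL by -0.02, RELA by -0.15 and NFKB2 by -0.29, while RELB was lower by 0.48 in shIKKE cells (782 and 558). After quantile normalization, or with the larger pseudocount, no member was 2-fold apart. Quantile normalization put 4.36% of all genes higher and 3.0% lower. Over both treatments, limma gave 0 of 9 members and 0 genes (0%) an adjusted p of at most 0.05 for the line, and 0 members an unadjusted p under 0.05, against 7.29% of genes. The members' adjusted p lay between 0.714 and 0.979.

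The gene whose pattern over the 4 arrays was nearest to that of RELB, by Euclidean distance of log2 values centred per gene over 13716 other genes, was NAB1, a corepressor of EGR factors (distance 0.32). It read 1097 and 13316 in control cells and 839 and 10780 in shIKKE cells. SPSB1 (0.35), SLC32A1 (0.42), METRNL (0.44) and UEVLD (0.44) followed. SLC32A1, METRNL and UEVLD passed the filter through their stimulated arrays alone, so they had to differ with stimulation. Their solvent signals in control and shIKKE cells were 26.7 and 13.0, 8.9 and 11.4, and 9.7 and 9.5. With 4 arrays this likeness rests mainly on a large difference of like size with stimulation in both lines.

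Genes upstream of NF-κB were mostly within 2-fold with stimulation, as were most of all genes past the filter. Over all genes 7.57% were higher and 6.44% lower in control cells, and 10.3% and 2.68% in shIKKE cells. Of 19 measured genes for I-κB kinases and their upstream signalling (22 listed), 2 were at least 2-fold higher and 1 lower in control cells and 3 and 1 in shIKKE cells, with medians of 0.28 and 0.16. MAP3K8, a kinase that acts with p105, read 34.2 and 309 in control cells and 66.0 and 757 in shIKKE cells (log2 2.75 and 3.27). MAP3K14, the kinase NIK of the pathway that processes p100, read 224 and 397 in control cells and 177 and 538 in shIKKE cells (log2 0.79 and 1.53). PRKCQ, encoding protein kinase C theta, was lower (2582 and 1082 in control cells, 2086 and 933 in shIKKE cells), and TRAF3, an adaptor that restrains NIK, had log2 differences of 1.08 and 0.59.

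Among 13 further I-κB-like proteins and NF-κB binding regulators (14 listed), 1 was at least 2-fold higher in control cells and 2 in shIKKE cells, with none lower and medians of -0.04 and 0.02. These lay near the values of all genes, of which 7.57% and 10.3% were higher, with medians of -0.07 and -0.01. NFKBID, encoding the nuclear I-κB protein I-κBNS, read 235 and 1982 in control cells and 162 and 4317 in shIKKE cells (log2 3.00 and 4.62). EP300, a coactivator, had 0.91 and 1.14 and its relative CREBBP 0.73 and 0.62. NKIRAS2, an I-κB-interacting Ras-like protein, had -0.18 and -0.62.

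Of 29 measured NF-κB target genes outside the family (38 listed), 15 were at least 2-fold higher and 1 lower in control cells and 18 and 2 in shIKKE cells, with medians of 1.04 and 1.28. The shares over all genes were 7.57% and 6.44% in control cells and 10.3% and 2.68% in shIKKE cells. The array has named probe sets for 35 of the 38, and a target that reached the filter on stimulated arrays alone had to differ, so these counts describe the measured genes. CCL4, a chemokine gene, read 4.8 and 570 in control cells and 1.8 and 2603 in shIKKE cells. TNF read 173 and 2442 in control cells and 95.0 and 7245 in shIKKE cells, and LTB, encoding lymphotoxin beta, had log2 differences of 4.91 and 4.58. PLAU, encoding urokinase, had 4.02 and 5.25. With solvent 5 of the 29 targets were at least 2-fold lower in shIKKE cells and 1 higher, against 6.68% and 4.34% of all genes. With stimulation 6 were higher and 0 lower, against 5.99% and 2.37% of all genes. The response was at least 2-fold larger in shIKKE cells for 15 of 29 targets and smaller for none, against 2 of 9 and none among the subunits and inhibitors. Over all genes 11.4% had a larger response and 4.67% a smaller one. These shares were not tested against each other.

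**Figure D5:**
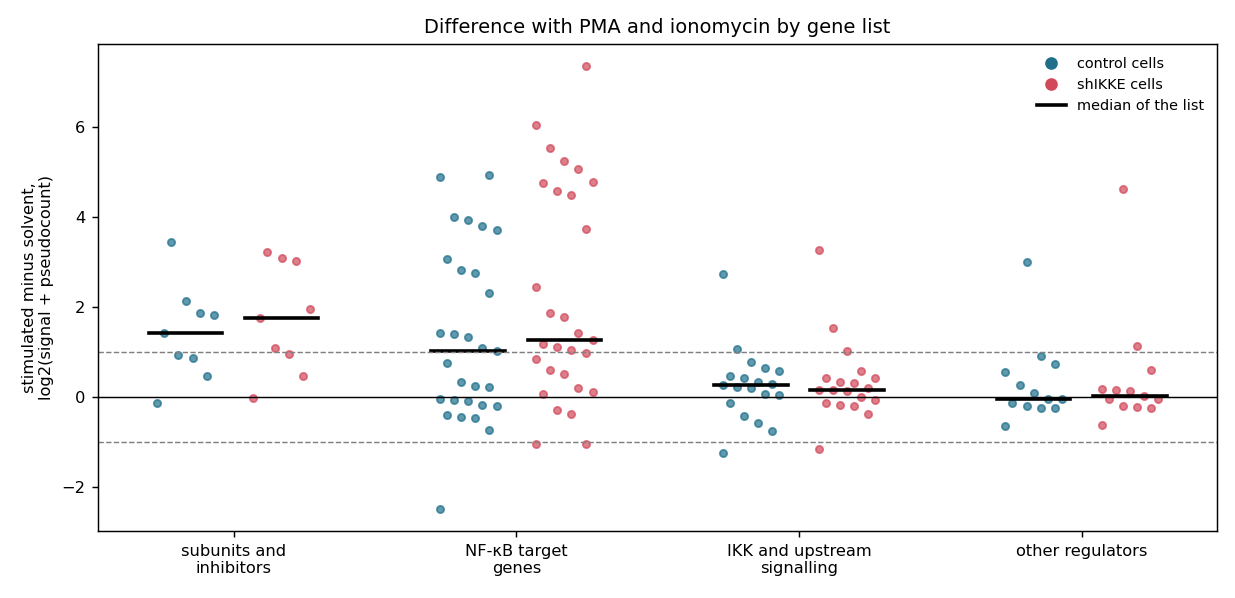
Log2 difference between stimulated and solvent arrays for each measured gene of 4 lists, in the control and shIKKE lines; black bars are the medians of the lists and dashed lines mark 2-fold. The medians of the subunits and inhibitors are 1.42 and 1.77, those of the targets 1.04 and 1.28, and those of the other lists lie between -0.04 and 0.28.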

How the data were processed

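The authors deposited a linear intensity for each probe set on each array, computed with MAS5 per the submitters' processing notes. Neither the MAS5 version nor its target or filters are stated in the sources used here. MAS5 weighs perfect-match against mismatch probes, which makes low signals noisy. The table had 0 columns that were not used. Of 54675 probe sets, 62 are array controls, and 41091 of the others have 1 gene symbol in the platform annotation, 1801 several and 11721 none. Before log2 was taken, a pseudocount of 14.1 (the 25th percentile of the whole table) was added to each signal. Probe sets whose highest signal reached 56.4, the median of all signals, were kept (26218 probe sets, 13717 genes).

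For the average effects of stimulation and line, limma (version 3.58.1, R version 4.3.3) was run over all genes as a two-sided additive model (lmFit, eBayes) and checked on simulated data. The remaining work was done in Python 3.11.15 (packages: pandas 2.3.3; numpy 2.4.6; scipy 1.17.1; matplotlib 3.10.9). The labels do not say whether samples came from separate cultures. The number of arrays limits the precision. Promoters came from RefSeq (GRCh38.p14).

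All members were named. From each pathway list up to 4 genes with the largest mean stimulation difference were named, with the 5 genes nearest to RELB, and IKBKE, TBK1, FOSB, EGR1 and CD69. The members, lists and alternatives were chosen with earlier results of these data known. Alternatives were other pseudocounts, no filter, quantile normalization, other choices of the probe set for a gene, another baseline and another error model in limma. Leaving out NFKBIZ was added after seeing the data.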

Additional observations from a re-analysis of the deposited data

Results flagged for a closer look

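NFKBIA and NFKB2 had differences between the lines of opposite sign in the 2 treatments. NFKBIA was lower in shIKKE cells with solvent (log2 -0.38) and higher with stimulation (0.87), a difference of 1.25. Its dim second probe set was higher in shIKKE cells in both treatments (1.21 and 0.29, a difference of -0.92), and so was the median over both probe sets (0.42 and 0.58, a difference of 0.16). NFKB2 was higher with solvent (0.17) and lower with stimulation (-0.29), a difference of -0.46, and its second probe set gave the opposite signs (-0.67 and 0.59). Each of these values rests on 1 array per group, and neither difference was tested.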

How the results depend on the processing

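The count of members at least 2-fold apart with stimulation stayed between 4 and 6 in control cells and between 5 and 8 in shIKKE cells under every alternative run. All of these were higher, where 3.94% to 9.60% of all genes were higher in control cells and 5.04% to 12.6% in shIKKE cells. With stimulation the count of members 2-fold apart between the lines went from 1 to 0 with the larger pseudocount (56.3), with quantile normalization and with NFKBIZ left out, an alternative chosen after seeing the data. The share of all genes higher in shIKKE cells there also fell, from 5.99% to 1.90% with the larger pseudocount and to 4.36% with quantile normalization. With a gene taken as the median over its probe sets, the count with solvent went from 1 to 2 (REL and NFKBIZ) and the count of unequal responses from 2 to 1 (REL). With that choice 4.45% of all genes were higher and 6.31% lower in shIKKE cells with solvent. A larger response in shIKKE cells was then seen for 11.5% of all genes and a smaller one for 5.23%. For stimulation limma called 4 members with the larger pseudocount and 5 with the error variance following the level, in place of 0, while the calls over all 13717 genes went from 1 to 573 and to 1044. Of 279 member values under the alternatives, 265 stayed on the same side of 2-fold, 7 moved past it in the same direction, 6 fell below it and 1 moved past it with the opposite sign. That was the difference in response of NFKB2, -0.46, which became 1.25 with the probe set of highest maximum and 0.39 with the median over probe sets. Part of the 279 values could not move. All 9 genes passed the filter, and leaving it out changed none of their values. NFKB1, NFKBIE and RELB have 1 probe set each, so the choice of probe set could not change them either. In all, 13 values changed sign, none of them past 2-fold in the values reported. They include NFKB2 with solvent (0.17 to -0.67 with the highest maximum), NFKBIA with solvent (-0.38 to 0.42 with the median) and the response of NFKBIZ (0.83 to -0.07 with the median). The additive limma model sets stimulated against solvent arrays within each line, and no replicate numbers pair the arrays otherwise. Signals near or below 56.4, as in NFKBIZ, RELB with solvent and the second probe set of NFKBIA, limit what can be read from their differences.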
